A study of Mus musculus with 6 samples.

Results

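Cnp (ENSMUSG00000006782, plus strand of mouse chromosome 11, mm10) was described from every entry of the transcript table that names this gene and no other. These were 204 of 36659 transcripts, of 1 of 6357 single-gene names. The study sequenced stored STRT/C1 cDNA, in which each cDNA molecule carries a 6-base unique molecular identifier (UMI), from 6 brain cells of CD-1 mice on a PacBio instrument. A deposited transcript is the group of reads that share cell, gene and UMI. The cells were 2 each of Oligo1, immature oligodendrocytes, of Oligo5, mature myelinating oligodendrocytes, and of cells labelled as oligodendrocyte progenitors, which the study calls vascular and leptomeningeal cells (VLMCs). No treatment is given, the labels give the stage of all 6 as embryo, and no animal is named. The cells of 1 type therefore count as 1 sample, and neither cells nor cell types were tested against each other.

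Cnp encodes 2′,3′-cyclic nucleotide 3′-phosphodiesterase (CNPase), an enzyme of noncompact myelin and a classical marker of oligodendrocytes. The gene has 2 promoters. The upstream one gives the CNP2 mRNA, in which a small first exon is spliced to a shared exon and a start codon in that first exon adds an N-terminal extension carrying a mitochondrial targeting signal. The downstream one gives the CNP1 mRNA, which begins just before the shared exon and uses the start codon within it.

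In the RefSeq-linked GENCODE model, Cnp-201, the exons lay at chr11:100574904-100575068 (the CNP2 first exon, 165 bp), chr11:100576236-100576905 (the shared exon 2, 670 bp), chr11:100578913-100579052 (exon 3, 140 bp) and chr11:100580347-100581728 (the last exon, 1382 bp). The CNP2 start codon began at 100575066, in the last 3 bases of its exon, and the stop codon ended at 100580796, which leaves a 3′ UTR of 932 bp. The CNP1 start codon began at 100576293, 57 bases into the shared exon, and is codon 21 of the CNP2 frame, so that the CNP2 protein has 20 residues more. The other GENCODE models start at 100575112 (Cnp-203), 100575524 (Cnp-204) and 100575891 (Cnp-202).

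The sequences on which the forms turn are given as 30-base windows of the plus strand, from the GENCODE M21 transcripts (GRCm38). The first shows the CNP2 transcription start site (TSS), with the 5 observed start positions in capitals.
CNP2 TSS, chr11:100574960-100574989: gtgggggggccccGGAcAcCcggagacgcc
The next 4 show the start positions of CNP1 with 5 or more transcripts, each in capitals.
CNP1 TSS, chr11:100575786-100575815: gccaaggcagctgtggctttGcccatacat
CNP1 TSS, chr11:100575790-100575819: aggcagctgtggctttgcccAtacatagag
CNP1 TSS, chr11:100575821-100575850: cccaggcctccaaacaggacAtccttaaga
CNP1 TSS, chr11:100575871-100575900: tagggctgacagggagccacAggcacttgc
The next 3 show a donor used within the CNP1 first exon and the acceptor shared by both forms, with the outermost intron bases in capitals, and the CNP1 start codon.
Donor, chr11:100575837-100575866: ggacatccttaagagGTgccaagaatatat
Shared acceptor, chr11:100576221-100576250: tcccttcttacacAGaacacaagctttacc
CNP1 start codon, chr11:100576278-100576307: ctcttcttcaggaaaATGtcatcctcagga
The last pair ends at the most frequent position of each of the main transcription termination sites (TTSs), with any AATAAA or ATTAAA in capitals.
Proximal TTS, chr11:100580911-100580940: ttttaggagtctataaaataactaccagtt
Distal TTS, chr11:100581697-100581726: gactgatactgaAATAAAtcatgttaatcc

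The table held 2338 to 11483 transcripts per cell. Of 10 oligodendrocyte markers 9 or 10 were detected in each of the 4 oligodendrocytes, and all had 0 transcripts in both VLMCs. Of the 10 progenitor markers, 9 were at 0 in either cell labelled as a progenitor, whereas 8 and 9 of the 10 VLMC markers were detected there, so these cells are called VLMCs here. Oligo5-2 also held 37 transcripts of neuronal markers (5 of 5 genes, 0.596% of the cell), and the other 5 cells held 0.

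Cnp transcripts were found in all 4 oligodendrocytes and in neither VLMC. Oligo1-1 held 103 of 11483 transcripts (0.897%, Wilson 95% interval 0.740 to 1.09%) and Oligo1-2 held 47 of 6043 (0.778%, 0.585 to 1.03%). Oligo5-1 held 36 of 5895 (0.611%, 0.441 to 0.844%) and Oligo5-2 held 18 of 6211 (0.290%, 0.183 to 0.458%). In this order each interval overlapped that of its neighbour, while the interval of Oligo5-2 lay below those of both Oligo1 cells. The mean over the 4 cells was 0.644% ± 0.264 (SD, n = 4). VLMC-1 had 0 of 2338 and VLMC-2 had 0 of 4689, which allows shares of up to 0.128% and 0.0640%. The lowest level was thus in the cell with neuronal transcripts, whose part in this level was not tested. These intervals and limits cover counting error only.

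The 204 transcripts rested on 265 reads, and 159 (77.9%) were read once. The median aligned length was 1671 bp (Oligo1-1), 544 bp (Oligo1-2), 818.5 bp (Oligo5-1) and 1990 bp (Oligo5-2), against 1109, 651, 619 and 1157 bp for all transcripts of these cells. Cnp transcripts were therefore longer than the typical transcript in 3 of the 4 cells and shorter in Oligo1-2. These medians join a short and a long PacBio run, described below, whose mix differed between Cnp and all transcripts. In Oligo5-2 the medians were 417.5 against 673.5 bp in the short run, with 4 Cnp transcripts, and 2281.5 against 1987 bp in the long run. The spliced CNP2 model has 2357 bases.

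**Figure D1:**
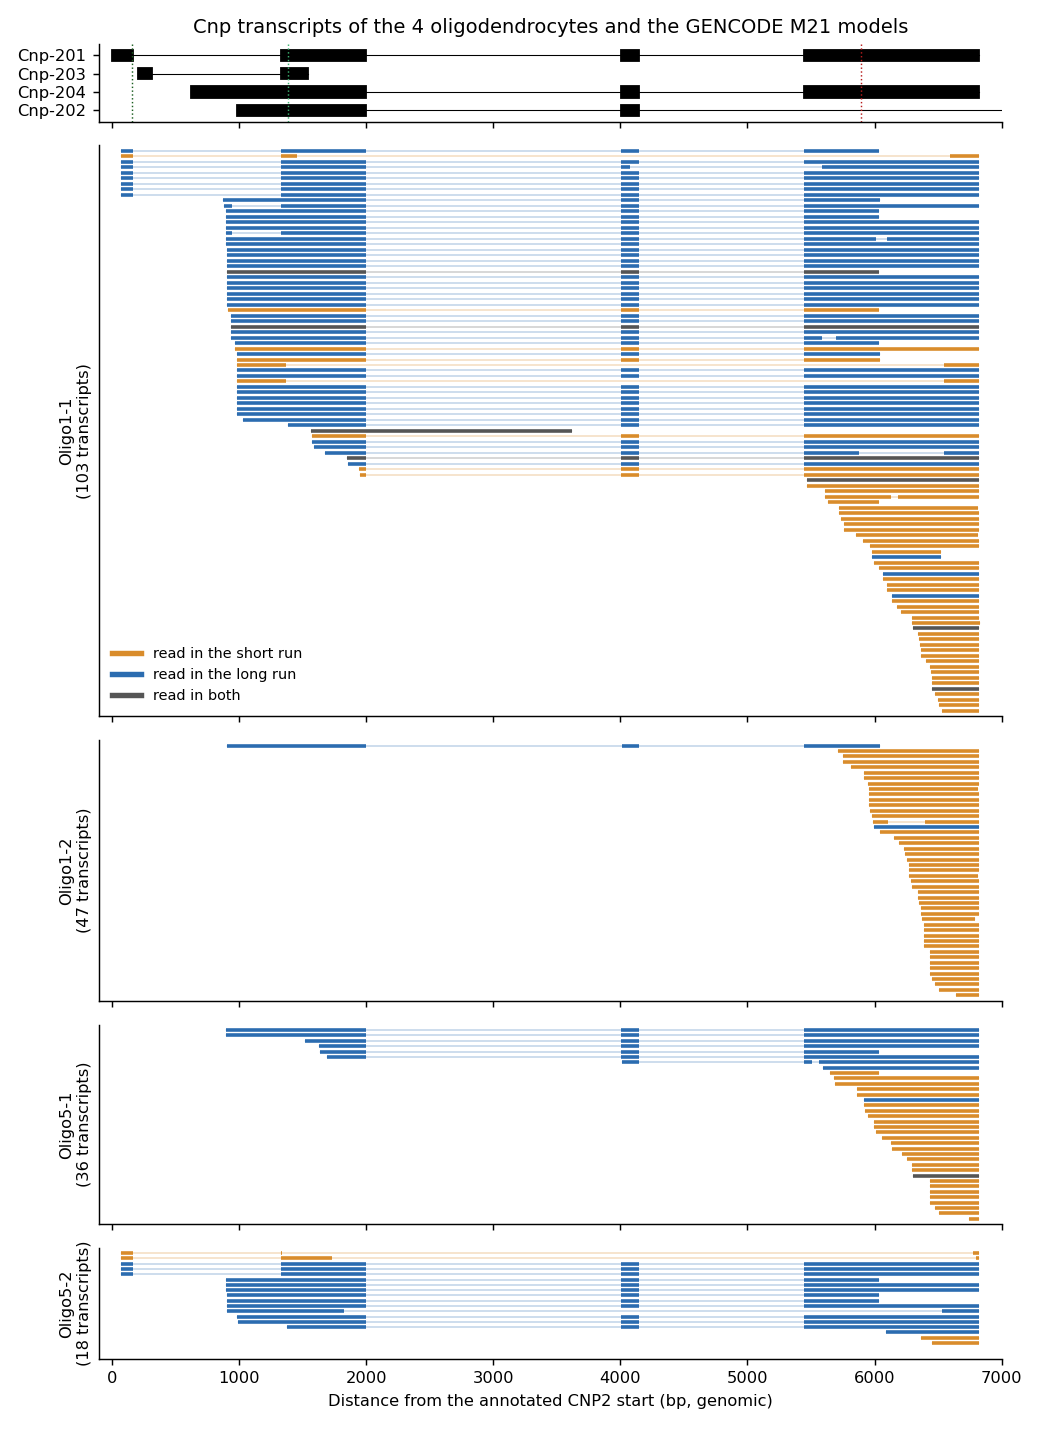
Each line is 1 Cnp transcript, drawn from its aligned blocks (thick) and gaps (thin) against the genomic distance in bp from the annotated CNP2 start, in a panel per oligodendrocyte and coloured by PacBio run. The top panel shows the 4 GENCODE models with dotted lines at the CNP2 and CNP1 start codons and the stop codon, and 1 block of an Oligo1-1 transcript and the last exon of Cnp-202 lie beyond the axis. Most lines of Oligo1-2 and Oligo5-1 lie in the last exon alone, and 183 of 204 end at its annotated end.

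Of the 204 transcripts, 14 (6.86%) started in the CNP2 first exon and 53 (26.0%) between that exon and the shared acceptor, which makes them CNP1. Another 15 began in the shared exon 2, 1 in exon 3, 21 in the coding part of the last exon and 100 (49.0%, 42.2 to 55.8%) in the 3′ UTR. These 137 transcripts could not be given to either form. Starts upstream of the shared acceptor made up 50 of 103 transcripts in Oligo1-1 (48.5%, 39.1 to 58.1%) and 14 of 18 in Oligo5-2 (77.8%, 54.8 to 91.0%). In Oligo1-2 they were 1 of 47 (2.13%, 0.377 to 11.1%) and in Oligo5-1 2 of 36 (5.56%, 1.54 to 18.1%). Each cell type thus had 1 cell with a high and 1 with a low share.

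When a first exon of any of the GENCODE models counted, 82 of 204 transcripts (40.2%, 33.7 to 47.0%) reached one, because the models Cnp-204 and Cnp-202 place the shared exon in their first exon. Among the cells, Oligo1-1 had 60 of 103, Oligo1-2 had 1 of 47, Oligo5-1 had 6 of 36 and Oligo5-2 had 15 of 18. It was 21.8% without Oligo1-1 and 51.6% without Oligo1-2. With RefSeq-linked first exons the count fell to the 14 CNP2 transcripts, and a 5′ end within 50 bp of any annotated start was seen in 22.

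The CNP2 form was seen in Oligo1-1 (9 transcripts) and Oligo5-2 (5 transcripts) and had 0 transcripts in Oligo1-2 and Oligo5-1, where the 0 stands beside 1 and 2 CNP1 transcripts. Its 14 transcripts started at 5 positions within 7 bp, chr11:100574973-100574979, 69 to 75 bp after the annotated start. Within 5 bp these formed 1 TSS. All 14 were spliced from the annotated donor to the shared acceptor.

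CNP1 outnumbered CNP2 in each of these cells, by 41 to 9 in Oligo1-1 and by 9 to 5 in Oligo5-2, and Oligo1-2 and Oligo5-1 held 1 and 2 CNP1 transcripts. The starts were spread over 161 bp and 13 positions, chr11:100575780-100575940, and formed 8 sites, of which 3 had 5 or more transcripts. The site at chr11:100575806-100575812 held 28 transcripts and was the only one of the 8 found in all 4 cells, which gave 18 (Oligo1-1), 1 (Oligo1-2), 2 (Oligo5-1) and 7 transcripts (Oligo5-2). Within it 12 transcripts began at 100575806, 4 at 100575808 and 11 at 100575810. The site at chr11:100575891-100575895 held 14 transcripts, 12 in Oligo1-1 and 2 in Oligo5-2, and 12 of them began at 100575891, the annotated start of Cnp-202. The site at 100575841 held 5 transcripts, all in Oligo1-1.

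Some of these starts shared UMIs that differed by 1 base or by a shift of 1 base, with the same ends within 5 bp. Joining such UMIs left 24 of 28 transcripts at the first of these sites, 9 of 14 at the second and 3 of 5 at the third, and 183 of the 204 in all. The order of these 3 sites by number of transcripts stayed as it was.

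**Figure D2:**
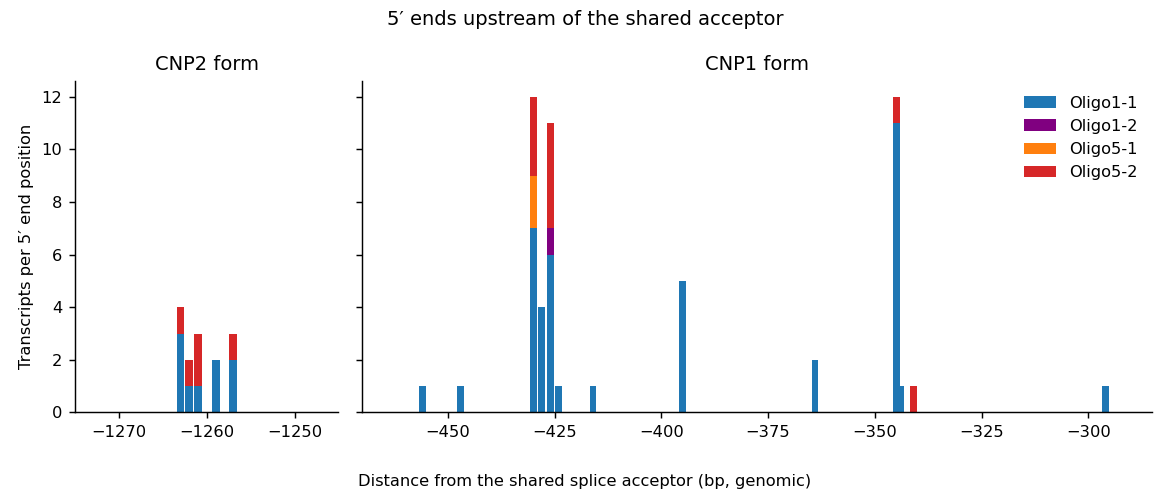
Bars count transcripts at each 5′ end position upstream of the shared acceptor, coloured by cell, against the genomic distance in bp from the first base of the shared exon, for the CNP2 form on the left and the CNP1 form on the right. CNP2 starts fall within 7 bp, and CNP1 starts fall mainly at 2 places, of which that near −430 holds transcripts of all 4 cells.

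The base before a CNP1 start was C or T and the start itself A or G in 46 of 53 transcripts (86.8%, 75.2 to 93.5%). This was so for 6 of 14 CNP2 transcripts (42.9%, 21.4 to 67.4%) and for 55 of 121 transcripts that started in the last exon (45.5%, 36.9 to 54.3%). The latter were 50 of 100 starts in the 3′ UTR (50%, 40.4 to 59.6%) and 5 of 21 in the coding part. Of all 931 positions of the 3′ UTR, 21.4% have these bases. Among other genes of the 4 oligodendrocytes the share was 56.3% of 11363 transcripts that reached a first exon and 47.0% of 15890 that did not. The transcripts are not independent here, since 12, 11 and 12 CNP1 transcripts began at 100575806, 100575810 and 100575891. A TATATAA, the only match on either strand between the annotated start of Cnp-204 and the shared acceptor, lay at chr11:100575862-100575868, with its first base 29 bases before 100575891. The CNP1 sites at chr11:100575806-100575812, with 28 transcripts, and at 100575841, with 5, lie upstream of this match. The same 7 letters were present on either strand in 3.24% of 32851 RefSeq promoters of 300 bases and not in the CNP2 promoter of that set. TATAAA, which 13.6% of these promoters held, was found in neither place. The stretch searched before the shared acceptor is longer than 300 bases, so these shares of promoters are not those of a stretch of equal length. A match of letters is a description and not a binding site.

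Of the 53 CNP1 transcripts, 51 were aligned without a gap from their start to the shared exon. The other 2, both in Oligo1-1 and read once in the long run, were spliced from a donor at 100575851 to the shared acceptor and lacked 384 bp. This gap begins with GT and ends with AG, as shown in the donor and acceptor windows above, and the shortened first exon leaves the CNP1 start codon in place.

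The authors numbered the exons of each transcript by the RefSeq model. Exon 4 alone was listed for 121 transcripts, exons 2, 3 and 4 for 64, and all 4 exons for 11. Exons 2 and 4 were listed for 3 transcripts, exons 1, 2 and 4 for 3, exon 2 for 1 and exons 3 and 4 for 1. The junction of exons 1 and 2 was at the annotated bases in all 14 of its cases. That of exons 2 and 3 was exact in 73 of 75 and that of exons 3 and 4 in 68 of 74, with the rest within 1 bp. No aligned block spanned a whole intron, and 1 Oligo1-1 transcript, read in both runs, ran from exon 2 into intron 2 and ended there at 100578521. That transcript and the other single ones named were chosen after their values were seen.

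A gap other than the 3 annotated introns was found in 17 transcripts, 1 in each. Besides the 2 shortened CNP1 first exons, 6 gaps led from exon 2 into the last exon and left out exon 3, 6 lay within the last exon, 1 led from within exon 3 into the last exon, 1 was the last intron shifted by 2 bp, and 1 led 17239 bp beyond the gene into the region of Dnajc7 on the other strand. Only the 2 shortened first exons had GT and AG at the ends of the gap, among 15 with sequence at both sides. A gap within 1 CNP2 transcript of Oligo1-1 had the same 5 bases at both sides, here in capitals, the longest repeat of the 17.
Left side, chr11:100576344-100576373: caagatgaggacacGGTGGctaccctccac
Right side, chr11:100581479-100581508: ggtctttaaaggagGGTGGtaggtaccaag
The 6 gaps that left out exon 3 went with the PacBio run. They were found in 5 of 8 transcripts that started upstream of the acceptor and were read in the short run, including all 3 of CNP2, and in 1 of 57 read in the long run. With the gap these transcripts had 161 to 661 aligned bases in the short run, and the 3 without it had 1755 to 2555.

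The exons from start to stop codon, with junctions within 1 bp of the annotated ones, were covered by 10 transcripts for CNP2, 7 in Oligo1-1 and 3 in Oligo5-2. A base missing at a junction was thus allowed, and the frame itself was not read base by base. Transcripts with another gap were left out, also where it lay after the stop codon. A further 49 covered the CNP1 frame in this sense without the CNP2 start codon, 38 from Oligo1-1, 0 from Oligo1-2, 2 from Oligo5-1 and 9 from Oligo5-2. The 2 transcripts with the shortened CNP1 first exon are among them, since their gap lies before the start codon. The 135 transcripts that started after the CNP1 start codon (66.2%, 59.4 to 72.3%) included 46 of 47 in Oligo1-2 and 34 of 36 in Oligo5-1. Oligo1-2 held 0 of 47 with a whole frame (Wilson upper bound 7.56%), and its single CNP1 transcript was aligned with the last intron shifted by 2 bp.

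The study sequenced the cDNA pool in 2 runs, and before the second one the pool was purified again to enrich for longer molecules. By the read names, 121 Cnp transcripts were read in the short run of 5 SMRT cells, 75 in the long run of 2 and 8 in both. Their median length was 564 and 2284 bp, against 587 and 1929 bp for all transcripts of the 4 cells. Of the transcripts read in the long run 67 of 75 (89.3%, 80.3 to 94.5%) reached an annotated first exon, and of those read in the short run 11 of 121 (9.09%, 5.15 to 15.5%). The odds ratio was 6.25 on the log2 scale, with an exact p of 2.28e-31 (Fisher, two-sided) over the molecules of the 4 cells pooled. A transcript read from the poly-A tail to a first exon is long, so this direction was favoured in advance by the enrichment. Loading and sequencing chemistry also changed between the runs, and their parts cannot be told apart from the enrichment. The test therefore says nothing of Cnp beyond a difference between the runs.

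The run differed in the same direction within each cell. In Oligo1-1 47 of 50 against 9 of 46 transcripts reached a first exon (94% and 19.6%, adjusted exact p = 5.53e-14), and in Oligo5-1 6 of 9 against 0 of 26 (adjusted exact p = 0.000104). In Oligo1-2 these were 1 of 2 against 0 of 45 (adjusted exact p = 0.0567) and in Oligo5-2 13 of 14 against 2 of 4 (adjusted exact p = 0.108). The latter pair did not pass the threshold of 0.05. These tests by cell compare molecules within 1 cell, whereas the pooled test joined cells with unlike shares of long-run transcripts. The cells also differed in how many of their Cnp transcripts came from the long run, which was 50 of 103 in Oligo1-1 and 14 of 18 in Oligo5-2 but 2 of 47 in Oligo1-2 and 9 of 36 in Oligo5-1. The low shares of first exons were thus in the cells with few long-run transcripts, and the part of the run in the difference between cells was not tested. The level also moved with the run. For the short and the long run taken by themselves, the share of Cnp stood at 0.772% and 1.19% in Oligo1-1 and at 0.987% and 0.187% in Oligo1-2. The same pair was 0.625% and 1.20% in Oligo5-1 and 0.139% and 0.485% in Oligo5-2, so that the lowest cell was Oligo5-2 in the short run and Oligo1-2, with 2 transcripts, in the long run.

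**Figure D3:**
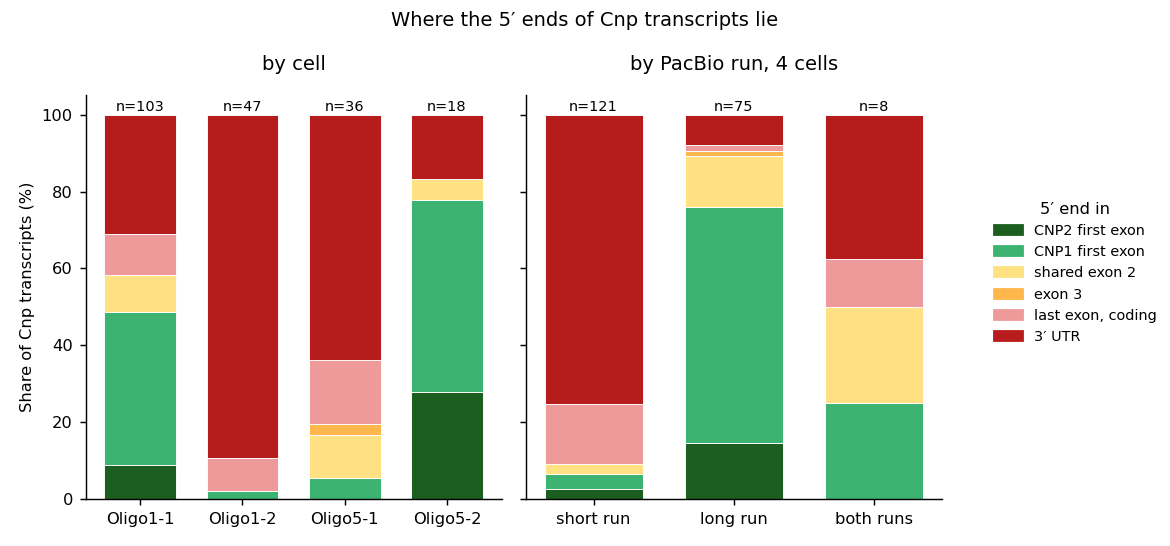
Stacked bars give the share of Cnp transcripts (%) whose 5′ end lay in each part of the gene, by oligodendrocyte on the left and by PacBio run over the 4 cells on the right, with the number of transcripts above each bar. The 3′ UTR holds most starts in Oligo1-2, Oligo5-1 and the short run, and the CNP1 first exon most starts in the long run.

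Cnp was set against the other genes of the same cell, since the depth and the cell are then shared. The mix of runs was not, as 2 of 47 Cnp transcripts were read in the long run alone in Oligo1-2, where 1070 of all 6043 transcripts were, and 14 of 18 in Oligo5-2, where 2885 of 6211 were. Over all transcripts a first exon was reached less often by Cnp than by other genes in Oligo1-2 (2.13% against 19.4%, log2 odds ratio −2.90, adjusted exact p = 0.00455) and more often in Oligo5-2 (83.3% against 55.5%, 1.83, adjusted exact p = 0.0352). The difference did not pass the test in Oligo1-1 (58.3% against 54.1%, 0.24, adjusted exact p = 0.428) or Oligo5-1 (16.7% against 26.7%, −0.77, adjusted exact p = 0.340). Against other genes with a longest annotated transcript within 20% of the length of that of Cnp, that in Oligo5-2 was lost (adjusted exact p = 0.281). All these shares count a first exon of any GENCODE model, which for Cnp includes the shared exon. With 5′ ends within 50 bp of an annotated start, Cnp was lower than other genes in each cell, past the threshold. In Oligo5-2 this was 11.1% against 43.9% (adjusted exact p = 0.00922) and in Oligo1-1 19.4% against 42.7% (adjusted exact p = 3.91e-06). With RefSeq-linked first exons Cnp was lower in each cell, though not past the threshold in Oligo5-2 (adjusted exact p = 0.0967).

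Within the runs the direction turned. In the short run Cnp reached a first exon less often than other genes in Oligo1-1 (19.6% against 42.4%, adjusted exact p = 0.00225), Oligo1-2 (0% against 17.9%, adjusted exact p = 0.000992) and Oligo5-1 (0% against 23.3%, adjusted exact p = 0.00225). In Oligo5-2, with 4 such Cnp transcripts, the shares were 50% and 45.0% (adjusted exact p = 1). In the long run Cnp reached one more often in Oligo1-1 (94% against 68.7%, adjusted exact p = 0.000142). The shares in the long run were 50% and 26.1% in Oligo1-2 (adjusted exact p = 0.454), 66.7% and 38.4% in Oligo5-1 (adjusted exact p = 0.129) and 92.9% and 66.0% in Oligo5-2 (adjusted exact p = 0.0879). The turn itself was not tested, and the split by run was chosen after the data were seen. Within the runs the other genes were not matched to Cnp for length. All transcripts of the 4 oligodendrocytes had a median of 587 bp in the short run and 1929 bp in the long run. The part of length in the turn was not tested.

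**Figure D4:**
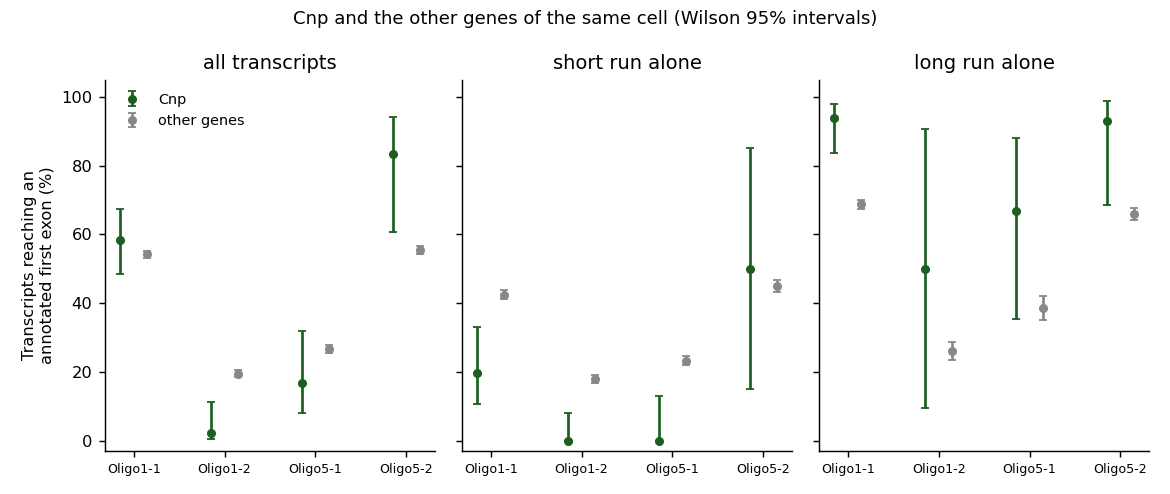
Points give the share of transcripts (%) that reached a first exon of any GENCODE model, with Wilson 95% intervals. They are shown for Cnp and for all other genes of the same oligodendrocyte, over all transcripts and for each PacBio run alone. Cnp lies below the other genes in 3 cells in the short run and above them in 4 cells in the long run, with wide intervals where Cnp had few transcripts.

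The starts after the shared acceptor were not placed alike along the gene. The 15 starts in exon 2, which count as reaching a first exon by the models Cnp-204 and Cnp-202, lay at 14 sites and 13 of these held 1 transcript, and 2 of the 15 lay before the CNP1 start codon. The 100 starts in the 3′ UTR lay 20 to 853 bp after the stop codon, with a median of 400 bp, at 35 sites, of which 17 were seen in 2 or more cells. Of these starts 91 were read in the short run, 6 in the long run and 3 in both. Sites with 5 or more transcripts numbered 7.

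The largest of them, chr11:100581338-100581346, held 12 transcripts, 2 from Oligo1-1, 5 from Oligo1-2, 5 from Oligo5-1 and 0 from Oligo5-2, all read in the short run. Next came chr11:100581192-100581208 with 8 transcripts of 3 cells and chr11:100581265-100581275 with 7 of 3 cells. The sites at chr11:100580816-100580822, chr11:100580895-100580902 and chr11:100581353-100581360 held 5 transcripts of 3 cells each, and chr11:100581292-100581293 held 5 of Oligo1-2. The most frequent start of the first 3 of these sites follows, with the 3 bases before it in capitals. In the first 2 sites another position, 100581344 and 100581198, was as frequent, and the lower position is shown.
3′ UTR start, chr11:100581325-100581354: tctccttcacacTGTacctagggtgatggt
3′ UTR start, chr11:100581180-100581209: ccacaggaaaacAGTggtagcttagagagg
3′ UTR start, chr11:100581251-100581280: ttgggaaggcttGGGctatttactgggcgg

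STRT adds its 5′ adapter through an oligonucleotide that ends in GGG, and the authors trimmed these bases from the reads. The 3 transcript bases before the 5′ end were GGG in 8 of 203 Cnp transcripts with known sequence (3.94%, 2.01 to 7.58%), against 858 of 26470 transcripts of other genes of these cells (3.24%, 3.03 to 3.46%). For starts upstream of the acceptor this was 1 of 67, and for starts in the last exon 7 of 121 (5.79%, 2.83 to 11.5%). The interval of the Cnp share and that of the last-exon starts both held the share of the other genes.

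The 3′ ends fell at 6 sites, of which 2 were found in all 4 cells. The distal TTS, chr11:100581716-100581730, ended 183 transcripts, or 89 of 103 for Oligo1-1, 45 of 47 for Oligo1-2, 34 of 36 for Oligo5-1 and 15 of 18 for Oligo5-2. Its most frequent position, 100581726, held 92 and lies 2 bases before the annotated end. The proximal TTS, chr11:100580939-100580950, ended 16 transcripts, of which 10 came from Oligo1-1, 1 from Oligo1-2, 2 from Oligo5-1 and 3 from Oligo5-2, and lies 144 bases after the stop codon and 788 before the annotated end at its most frequent position. None of the GENCODE models ends there.

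A transcript can show the proximal TTS only if it starts before it. Among the 104 transcripts that started before the stop codon 16 (15.4%, 9.70 to 23.5%) ended at the proximal TTS. This was 12 of 53 for CNP1 (22.6%, 13.5 to 35.5%), 1 of 14 for CNP2 (7.14%, 1.27 to 31.5%), 1 of 15 for starts in exon 2 and 2 of 21 for starts in the coding part of the last exon. The intervals of the forms overlap. By run the share was 11 of 69 in the long run (15.9%, 9.14 to 26.3%) and 4 of 30 in the short run (13.3%, 5.31 to 29.7%). By cell it was 10 of 71 for Oligo1-1 (14.1%, 7.83 to 24.0%), 1 of 5 for Oligo1-2 (20%, 3.62 to 62.4%), 2 of 13 for Oligo5-1 (15.4%, 4.33 to 42.2%) and 3 of 15 for Oligo5-2 (20%, 7.05 to 45.2%). These intervals overlap as well, and those of the cells with few transcripts are wide.

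The poly-A signals AATAAA or ATTAAA were searched in the 40 transcript bases before each 3′ end on the transcript strand. One was present in all 182 distal ends with sequence and in 0 of 16 proximal ends, as in the windows above. The ends of a TTS share nearly the same bases, so these counts describe a single sequence per TTS and not independent cases. Other variants of the signal were not searched, so these counts do not show that the proximal TTS lacks one. Over all Cnp ends it was 182 of 201 (90.5%, 85.7 to 93.9%) and over other genes of these cells 18102 of 27013 (67.0%). None of the 16 proximal ends was followed by 10 bases with 6 or more A, which 39.9% of 18058 ends of other genes were. That count too rests on a single sequence, and the interval over all Cnp ends treats such copies as independent.

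The other ends were those of 5 transcripts. A pair in Oligo1-1 ended at chr11:100581424-100581426, 1 in Oligo1-2 at 100581696, 1 in intron 2 and 1 in the region of Dnajc7.

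**Figure D5:**
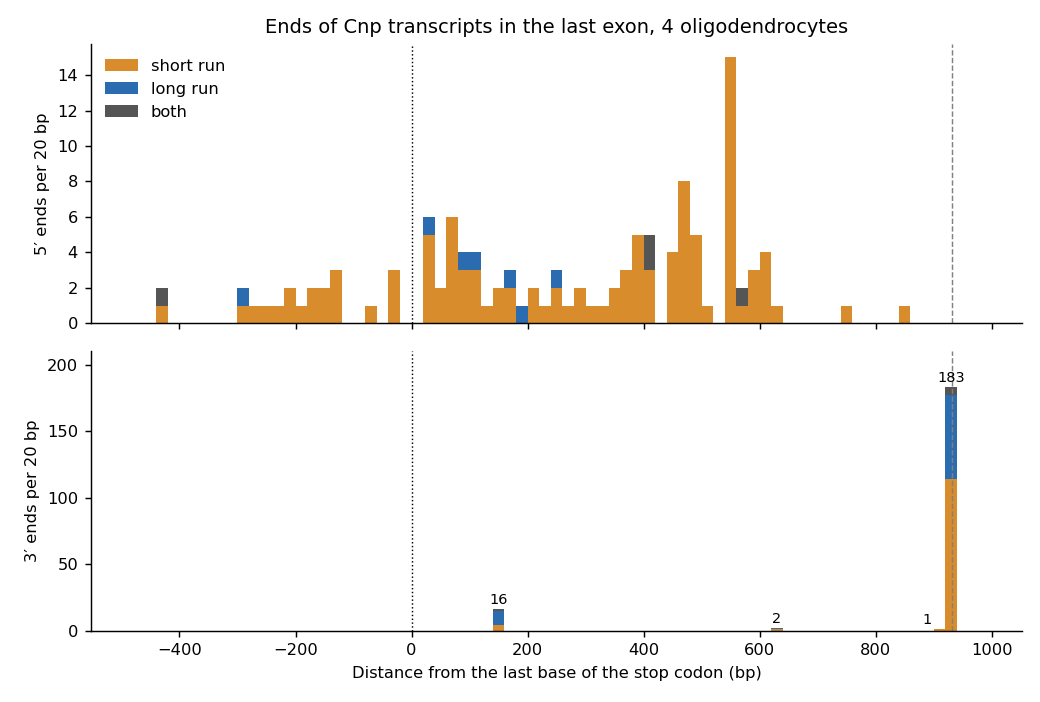
Histograms in 20 bp bins count the 5′ ends (top) and 3′ ends (bottom, with the count over each bar) of Cnp transcripts in the last exon, coloured by PacBio run, against the distance in bp from the stop codon (dotted line), with the annotated end as a dashed line. The 5′ ends are scattered and mostly of the short run, while 183 of the 3′ ends fall at the annotated end and 16 at the proximal TTS.

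The 20 other genes of a fixed list of myelin genes were all detected in an oligodendrocyte, 14 of them in all 4, and 5 had transcripts in a VLMC (Sirt2, Gsn, Sept2, Sept4 and Sept7). Given as a percentage of a cell's transcripts, in the order Oligo1-1, Oligo1-2, Oligo5-1, Oligo5-2, Mbp, myelin basic protein, stood at 1.44%, 0.943%, 0.322% and 0.499%, and Mobp, a further basic protein of myelin, at 1.06%, 0.397%, 0.254% and 0.209%. Like Cnp, both were highest in Oligo1-1.

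Mog, a glycoprotein of the outer myelin surface, stood at 0.453%, 0.0331%, 0.322% and 0.564%, Cldn11, a tight junction protein, at 0.374%, 0.579%, 0.305% and 0.0644%, and the tetraspanin Tspan2 at 0.714%, 0.712%, 0.271% and 0.0322%. Mag, Ermn, Sirt2, Gsn, Sept2, Sept4 and Sept7 lay between 0% and 0.618% in these cells, and the other 6 genes had fewer than 20 transcripts. Of the 14 genes with 20 or more, 7 were lowest in Oligo5-2 among the oligodendrocytes, as Cnp was. Car2, carbonic anhydrase, ran the other way, at 0%, 0.0165%, 0.221% and 0.805%. Ermn (0.0871%, 0.0165%, 0.288% and 0.274%) and Gsn (0.113%, 0.0993%, 0.407% and 0.274%) were likewise higher in both Oligo5 cells than in either Oligo1 cell. So was Sept2 (0.0435%, 0.0331%, 0.0679% and 0.113%). Over the 4 cells, first exons were reached by 32.7% of Mbp, 70.1% of Mobp, 68.5% of Mog and 1% of Cldn11 transcripts, beside 40.2% for Cnp.

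By the cosine of the shares over the 6 cells, the genes most like Cnp among 62 with 50 or more transcripts were Elovl7 (0.986), an elongase of long fatty acids, Syt11 (0.972), a synaptotagmin, Olig1 (0.966), a transcription factor of the oligodendrocyte lineage, Enpp2 (0.964), autotaxin, and App (0.961), the amyloid precursor protein. Elovl7 stood at 0.235%, 0.248%, 0.119% and 0.0644% in the 4 oligodendrocytes and at 0 in the VLMCs. App was the only one of the 5 with transcripts in the VLMCs (0.0855% and 0.107%). The points share the depth and run composition of each cell. Shared absence from the VLMCs was not enough for a high value, since Car2 and Mog, also at 0 there, had 0.334 and 0.732.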

How the data were processed

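Per the labels and methods, the authors separated concatenated molecules, required poly-A and matching barcodes on either side, trimmed adapters and GGG, aligned to mm10 with GMAP (GSNAP in the submitters' processing notes), closed gaps under 40 bp and collapsed reads by UMI. The deposited values are counts of reads per transcript, without normalization, with the positions of the aligned blocks. Starts count from 0 and were raised by 1. Library sizes were 2338 to 11483 transcripts.

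Exons and sequences came from GENCODE M21 and promoters from RefSeq (GRCm38), with 6132 gene names matched by symbol, 200 by synonym and 25 unmatched. A further 356 transcripts of 2 or more genes count in the cell totals only. TSSs and TTSs within 5 bp were chained and junctions within 1 bp taken as the same. Intervals of shares are Wilson 95% intervals. Two-sided Fisher's exact tests were run with 0.5 added for the odds ratio, with Benjamini-Hochberg adjustment over the 4 oligodendrocytes and a threshold of 0.05. Labels were matched to barcodes in the sample descriptions. Runs were told apart by movie names. Scripts used Python 3.11.15, scipy 1.17.1, statsmodels 0.14.6, pandas 2.3.3, numpy 2.4.6 and matplotlib 3.10.9, and were tested on simulated data. The members, gene lists and tests were chosen with earlier results of these data known. Named genes were Cnp, the 5 with the highest cosine, and a list of myelin genes, of which 1 is not reported here. Sites named are annotated, have 5 or more transcripts or were seen in 2 or more cells. Alternatives changed the UMI minimum and joining, the run, the definition of a first exon, the tolerances and the cells.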

Additional observations from a re-analysis of the deposited data

How the results depend on the processing

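The mean share of Cnp was 0.365% with UMIs read 2 or more times and 0.559 to 0.762% without each cell in turn. The share of transcripts that reached a first exon was 10.8% for 5′ ends within 50 bp of an annotated start, 32.8% for starts upstream of the shared acceptor, 26.7% with UMIs read 2 or more times, 11.6% and 85.5% for the short and long run with transcripts of both, 6.86% for RefSeq-linked exons, and 21.8 to 51.6% without each cell. Cnp against other genes had a log2 odds ratio of −1.60, −3.90 and −2.37 in Oligo1-1, Oligo5-1 and Oligo5-2 for ends within 50 bp of a start, −3.22, −4.19 and −1.25 for RefSeq-linked exons, and −0.19 in Oligo1-1 and 1.18 in Oligo5-2 against genes of similar length. For the short run it was −1.54, −4.01 and 0.29 in these 3 cells, and for the long run 2.63, 1.57 and 2.21, with 1.50 in Oligo1-2. The cause was not tested. The log2 odds ratio of the long against the short run stayed above 0 and past the threshold under all 8 alternatives run, 2.97 to 6.78. The enrichment of the long run for longer molecules favoured this direction under each of them, so they say nothing more of Cnp.

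Start sites numbered 131 and 31 at tolerances of 0 and 20 bp and 28 with UMIs read 2 or more times, end sites 21 at 0 bp, and structures 19 when rebuilt from the blocks. GGG before the start stood at 18.2% when 2 or 3 of the bases were G and was 1.49% upstream of the acceptor. The 5 genes most like Cnp shared 3 with those by Pearson's r and 1 with those at 20 or more transcripts. Joining by a shifted UMI, RefSeq-linked exons, each run against other genes, the acceptor as limit in the run test and the subsets for GGG were chosen after seeing the data. No paired analysis was possible because the tests compare molecules, within a cell or, for the runs, also pooled over the oligodendrocytes. Cells that share a number share no known animal or batch. With 0 to 41 transcripts of CNP1 or CNP2 in an oligodendrocyte and 1 read behind most, the intervals of the forms are wide, and a difference in forms between cells was not tested.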
